A study of Arabidopsis thaliana with 9 samples.

Results

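The transcript changes shared by a pair of lines with raised CONSTANS (CO) were measured against wild type, whichever promoter drove CO. The comparison used all 9 of the 9 samples of the series: 3 of 35S:CO, 3 of SUC2:CO and 3 of Col-0, each line weighted equally in the mean of the 2 CO lines. Genes were then sorted by whether all 6 CO-line samples lay above, or all lay below, the 3 Col-0 samples. All samples were Arabidopsis thaliana seedlings labelled with Col-0 as their line, grown in soil at 22 °C under long days (16 h light, 8 h dark), and sampled 7 days after germination at ZT14, a time counted in hours from lights on. In 35S:CO the transgene has the viral 35S promoter, known for activity across most tissues. SUC2:CO, labelled SUC2:HA:CO, carries CO with an HA tag behind a promoter of phloem companion cells, in a background labelled co-10, a mutant allele of CO, while Col-0 carries no transgene. SUC2:CO therefore differs from Col-0 in both transgene and background, and the labels do not say how many transgenic insertions stand behind either line. Nothing in the labels says that replicates came from separate sowings, so p-values measure the spread between these samples, which may be technical.

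CO is a B-box and CCT-domain transcription factor that accumulates in the light at the end of long days. In leaf phloem it activates FT, whose protein moves to the shoot apex and, with bZIP partners, turns on SOC1 and other floral genes. Clock proteins time CO transcription, through GI and the CDF repressors, and the COP1-SPA complex removes CO protein in darkness. Expression below is given as CPM, the count relative to the TMM-scaled library total. A log2 change is the mean of both lines against Col-0 unless a line is named. Where a standard error (SE) follows, it was worked back from the test, as the size of the change divided by the square root of edgeR's F statistic. "Changed" means an adjusted p under 0.05 in edgeR's quasi-likelihood test, with Benjamini-Hochberg adjustment over all tested genes.

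FT is the direct and best known target of CO, so the bases before its annotated start are shown first. BBX30, GI and GRP7 follow, from the B-box and clock lists. Their windows hold a searched motif, and their CO-line samples did not overlap Col-0. They were picked after the values were seen. Each window is the last 250 bases before the gene's start in the TAIR10.1 annotation of RefSeq, written 5′ to 3′ on the gene's strand. Capitals mark a pair of forms of the CO-responsive element, TGTGNNATG and a longer form with 1 more free base before ATG, in FT, BBX30 and GI. In GRP7 they mark AAAATATCT, the evening element bound by clock MYB proteins, or its reverse complement.
FT, chr1:24331123-24331372, plus strand: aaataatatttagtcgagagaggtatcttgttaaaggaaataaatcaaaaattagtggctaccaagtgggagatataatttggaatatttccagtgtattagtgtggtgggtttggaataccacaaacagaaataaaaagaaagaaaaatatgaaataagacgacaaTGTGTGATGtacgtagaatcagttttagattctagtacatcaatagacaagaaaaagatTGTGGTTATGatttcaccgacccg
BBX30, chr4:8708591-8708840, plus strand: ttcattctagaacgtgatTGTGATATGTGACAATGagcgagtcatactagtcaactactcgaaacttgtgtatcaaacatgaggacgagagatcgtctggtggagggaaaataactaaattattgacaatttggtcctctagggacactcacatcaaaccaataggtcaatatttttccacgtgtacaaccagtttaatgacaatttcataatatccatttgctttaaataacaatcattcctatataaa
GI, chr1:8061501-8061750, plus strand: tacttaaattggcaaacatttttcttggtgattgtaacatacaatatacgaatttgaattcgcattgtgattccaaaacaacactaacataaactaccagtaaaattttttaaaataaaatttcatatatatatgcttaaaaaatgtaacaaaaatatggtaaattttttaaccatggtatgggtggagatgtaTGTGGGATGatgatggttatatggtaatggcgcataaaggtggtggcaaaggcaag
GRP7, chr2:9266558-9266807, minus strand: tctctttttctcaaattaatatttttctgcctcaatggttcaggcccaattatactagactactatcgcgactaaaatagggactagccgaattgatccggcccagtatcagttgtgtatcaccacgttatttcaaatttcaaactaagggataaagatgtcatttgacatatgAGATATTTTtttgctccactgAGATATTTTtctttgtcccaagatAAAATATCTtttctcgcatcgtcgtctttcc
The FT window held the first form at -83 and the second at -24, counted from the base before the start as -1, and CCACA, the core bound by CO complexes, 3 times on either strand. In BBX30 both forms overlapped, at -232 and -225. GI held the first form at -56, and GRP7 held the evening element at -76, -55 and -31.

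CO itself rose in both lines. It was at 9.54, 10.1 and 7.96 CPM in Col-0, at 576, 657 and 676 CPM in 35S:CO and at 48.6, 50.9 and 60.3 CPM in SUC2:CO. The groups did not overlap, and the rise was 6.11 log2 units in 35S:CO and 2.53 in SUC2:CO. Reads from the transgene and from the resident gene are counted together, and some reads may belong to AT5G15843 or AT5G15845, loci that share bases with CO. Totals were alike, from 25563118 to 26636174 counts per library, TMM factors ran from 0.942 to 1.09, and a level of 3 counts corresponded to between 0.104 and 0.125 CPM. The label is seedling, yet of 13 root markers 6 were at 0 in every library (RHD6, EXPA7, EXPA18, PLT1, PLT2 and TIP2;3) and CASP2 did not pass 3 counts. Their summed level, made up mostly of PYK10 and SCR, was 120 to 200 CPM in Col-0, 88.6 to 184 in 35S:CO and 79.9 to 86.5 in SUC2:CO. The 7 floral organ markers summed to at most 1.59 CPM and the 8 seed markers to at most 0.828 CPM in any library. The 5 shoot meristem markers summed to between 40.1 and 49.4 CPM in Col-0, 42 and 55.8 in 35S:CO and 60.8 and 69.6 in SUC2:CO, almost all of it CLV1. KNAT1 and STM, which mark the shoot meristem, varied widely within genotypes. KNAT1 had 18, 0 and 67 counts in Col-0, 55, 116 and 1 in 35S:CO and 2, 3 and 6 in SUC2:CO. The part of these differences in tissue content in the results below was not tested.

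**Figure D1:**
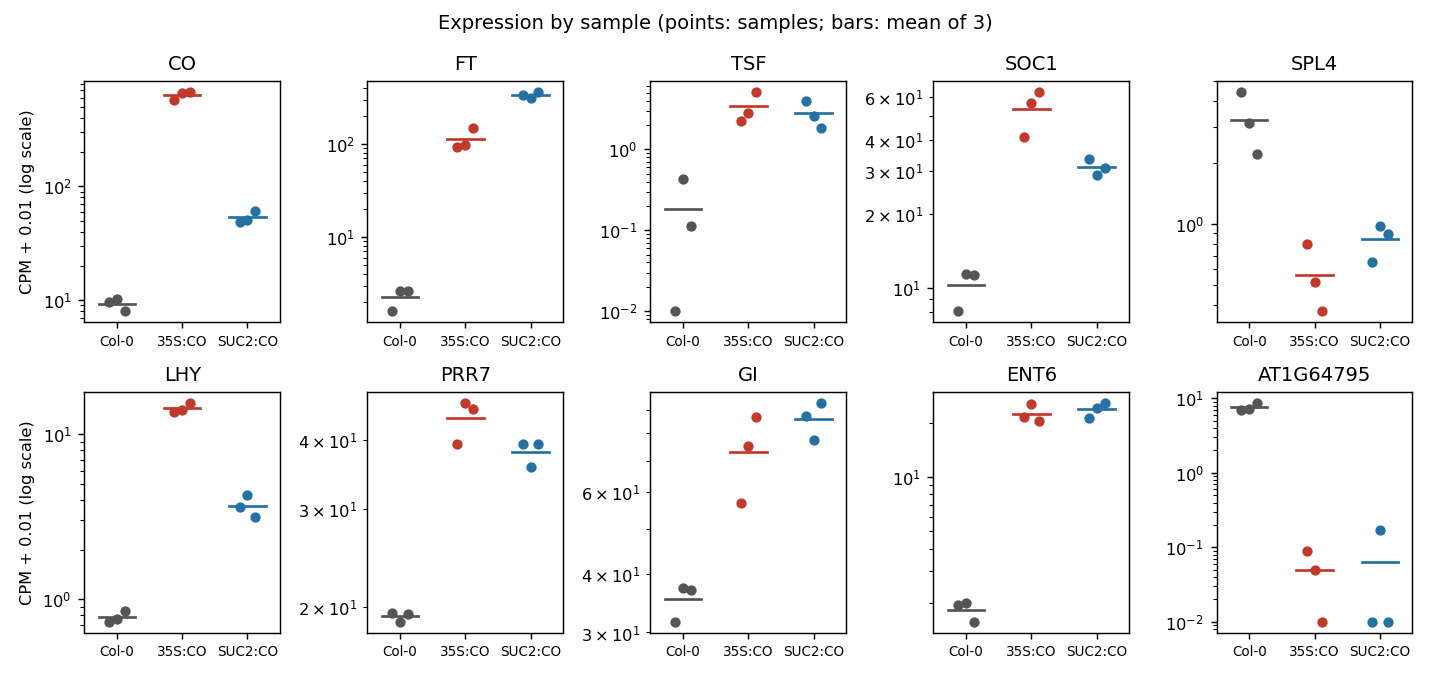
CPM plus 0.01, on log axes that differ between panels, for 10 genes in each of the 9 samples; points are samples and bars the mean of 3. All 6 CO-line samples lie above Col-0 for 8 of the genes, and below it for SPL4 and AT1G64795.

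Of 19149 tested genes, 4695 (24.5%) changed in the mean of both lines, 2103 of them higher (11%) and 2592 lower (13.5%). Without regard to the test, 3440 genes (18%) had all 6 CO-line samples on one side of all 3 Col-0 samples, 1413 above (7.38%) and 2027 below (10.6%). Both criteria were met by 2913 genes (15.2%), 1207 higher (6.3%) and 1706 lower (8.91%). These 2913 genes are called common below, and "rose" and "fell" are used of them. The call rests on the mean of the lines, so a common gene need not pass the test in each line alone. PRR3 did not pass in 35S:CO (0.15, edgeR adjusted p 0.38) and KIN1 not in SUC2:CO (-0.48, edgeR adjusted p 0.26). LWD1 passed in neither line alone. Without Col-0 replicate 1 the count of changed genes was 2545. Without Col-0 replicates 2 and 3 the counts with no overlap were 5605 and 5223. Leaving out a sample leaves fewer values for the no-overlap rule to separate, which by itself tends to raise such counts. When the 6 CO-line samples were treated as 1 group, so that the difference between lines entered the spread, 1883 genes changed and 1799 also did not overlap.

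Most common changes were modest. The common rises had a median of 0.69 log2 units and quartiles of 0.45 and 1.27, and the common falls a median of -0.65 and quartiles of -0.91 and -0.46. The median over all tested genes was -0.03. A change of at least 1 log2 unit was reached by 407 rises (2.13% of tested genes) and 293 falls (1.53%), and 271 rises and 86 falls reached it in each line. At 2 log2 units in each line, 78 rises and 9 falls remained. The margin between the groups was narrow for many genes. On a scale of log2(CPM + 0.1), the gap between the nearest CO-line and Col-0 samples had a median of 0.13 over the 3440 genes. In 352 of them it was under 0.02, and another 388 genes overlapped by less than 0.02. Gaps of at least 2 were found in 15 higher and 2 lower genes. The widest upward gaps were in FT (5.10), SWEET15 (4.06), AT3G29644 (3.45), LEA3 (3.40) and ENT6 (3.29). The widest downward gaps were in AT1G64795 (4.75) and MEE3 (2.3).

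The common rises differed in size between the lines in 370 of 1207 genes (30.7%) and the common falls in 479 of 1706 (28.1%), by the edgeR test of 35S:CO against SUC2:CO, which called 18.8% of all tested genes. Among those rises the change was larger in 35S:CO for 206 and larger in SUC2:CO for 164. Among those falls it was larger in 35S:CO for 24 and larger in SUC2:CO for 455. These 849 genes became 522 without 35S:CO replicate 1, 497 and 382 without SUC2:CO replicates 2 and 3, and 1338 without Col-0 replicate 2. A further 896 higher and 886 lower genes changed in the mean but overlapped, and in these the lines differed in 564 (62.9%) and 333 (37.6%). The lines lay on opposite sides of Col-0 in 85 and 44 of them. Conversely 206 higher and 321 lower genes did not overlap but were not called, with median changes of 0.26 and -0.29. Both lines are set against the same Col-0 samples, so their changes are not independent of each other. Against Col-0 alone, 35S:CO had 2261 changed genes (11.8%) and SUC2:CO 6176 (32.3%).

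**Figure D2:**
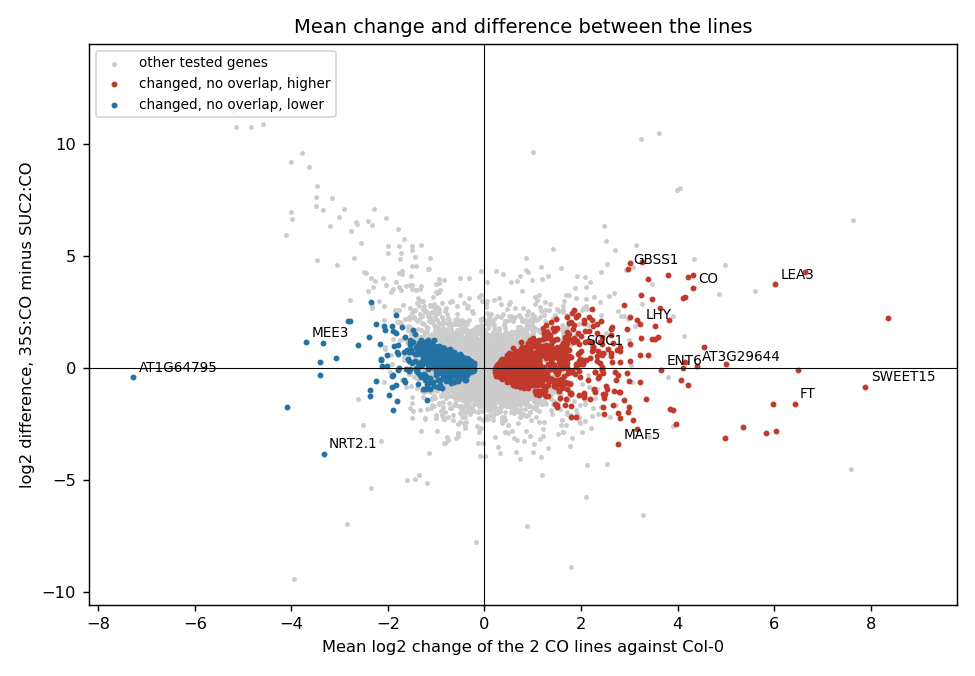
Each point is a tested gene; the x axis is the mean log2 change of the 2 CO lines against Col-0 and the y axis the log2 difference of 35S:CO minus SUC2:CO, so genes at 0 on the y axis moved equally in both lines. FT, ENT6 and AT1G64795 lie far from 0 on the x axis, while CO and GBSS1 also lie 3.58 and 4.43 above 0 on the y axis.

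Of 14 tested florigen genes and floral integrators, from a list of 23, 7 (50.0%) were common rises and 1 (7.1%) a common fall, 2 changed with overlap and 4 did not pass the test. The list's median was 1.09 log2 units, to be read against shares of 6.3% and 8.9% and a median of -0.03 over all tested genes. FT, the florigen, was at 1.59, 2.62 and 2.61 CPM in Col-0. It reached 92.8, 97.2 and 149 CPM in 35S:CO and 336, 313 and 362 CPM in SUC2:CO. All CO-line samples thus lay far above Col-0, and those of SUC2:CO lay above those of 35S:CO. The mean rise of FT was 6.42 ± 0.25 log2 units (SE, edgeR adjusted p 4.7e-07). TSF, the closest relative of FT and also a florigen, had 0, 0.415 and 0.104 CPM in Col-0. It had 2.21, 2.81 and 5.10 CPM in 35S:CO and 3.97, 2.54 and 1.8 CPM in SUC2:CO, with no overlap. Its rise was 4.16 ± 0.67 (SE, edgeR adjusted p 0.0019).

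BFT, a member of the FT family that delays flowering when overexpressed, was at 2.02 to 3.1 CPM in Col-0, 7.58 to 10.4 CPM in 35S:CO and 29.7 to 37.6 CPM in SUC2:CO. SOC1, the MADS-box integrator downstream of FT, was at 8.02, 11.4 and 11.3 CPM in Col-0. It was at 41.2, 56.3 and 62.7 CPM in 35S:CO and at 33.4, 28.8 and 30.8 CPM in SUC2:CO, a mean rise of 1.99 ± 0.16 (SE, edgeR adjusted p 6.2e-05). The MADS-box genes SEP1, SEP4 and FUL, known for roles in floral meristem and organ identity, rose by 2.64, 1.00 and 1.18. SPL4 was the fall of this list. It encodes an SBP-box activator that promotes flowering, and it was at 4.43, 3.11 and 2.19 CPM in Col-0, 0.789, 0.508 and 0.364 CPM in 35S:CO and 0.643, 0.969 and 0.880 CPM in SUC2:CO. Its mean change was -2.25 ± 0.29 (SE, edgeR adjusted p 0.00081). BFT, SEP1 and SPL4 each overlap another annotated locus.

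Genes that restrain flowering or act on CO also moved, mostly upward. Of 30 tested, 9 (30.0%) were common rises and 2 (6.7%) common falls, 18 did not pass the test, and the median was 0.19. CDF1, CDF2 and CDF3, Dof factors that repress CO and FT transcription, rose by 1.34, 1.13 and 1.03. CDF1 was at 7.23 to 9.96 CPM in Col-0, 17.5 to 31.6 CPM in 35S:CO and 15.1 to 18.0 CPM in SUC2:CO. AT1G69570, annotated as a Dof-type zinc finger protein, rose by 1.53. SPA1 and SPA4, partners of COP1 in the removal of CO protein, rose by 0.49 and 0.43. The MADS-box repressors MAF5, MAF4 and SVP rose by 2.77, 0.83 and 0.54. MAF5 was unequal between the lines, at 0.947 to 1.66 CPM in 35S:CO and 12.9 to 16.3 CPM in SUC2:CO against 0.492 to 0.730 CPM in Col-0. TEM1, a direct repressor of FT, fell by 1.13 ± 0.20 (SE, edgeR adjusted p 0.0031). It was at 15.6 to 29.5 CPM in Col-0, 5.04 to 9.04 CPM in 35S:CO and 13.0 to 14.8 CPM in SUC2:CO. In SUC2:CO alone the change of TEM1 (-0.67) did not pass the test. With the lines as 1 group, this list had 8 common rises and 0 common falls. AP2, a floral repressor and organ identity gene, fell by 0.35, and its call was lost in 8 of 17 alternative settings. AT1G69570 and SPA4 overlap other loci.

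At this single time of day, late in the light, many clock genes stood above wild type in both lines. Of 34 clock genes, all tested, 14 (41.2%) were common rises and 3 (8.8%) common falls, 3 changed with overlap and 14 did not pass the test. The list's median was 0.39. With the CO lines as 1 group, 8 of these genes rose and 1 fell. LHY and CCA1 encode the paired MYB factors of the morning. LHY was at 0.719, 0.747 and 0.834 CPM in Col-0, 13.7, 13.9 and 15.5 CPM in 35S:CO and 3.63, 4.24 and 3.14 CPM in SUC2:CO. No sample of either line came near Col-0, and the mean rise was 3.23 ± 0.16 (SE, edgeR adjusted p 4.1e-06). CCA1 was at 0.664 to 1.01 CPM in Col-0, 2.58 to 3.35 CPM in 35S:CO and 2.02 to 2.22 CPM in SUC2:CO. It rose by 1.51 ± 0.22 (SE, edgeR adjusted p 0.0012).

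The related MYB genes ASG4, RVE8 and RVE1 rose by 3.39, 2.24 and 1.96. RVE8, an activator of evening genes, was at 0.870 to 1.32 CPM in Col-0, 11.6 to 14.5 CPM in 35S:CO and 1.85 to 2.5 CPM in SUC2:CO. LNK1, LNK2 and LNK4, of the family of coactivators of RVE8, rose by 1.15, 1.00 and 1.3, with the call of LNK4 lost in 5 of 17 alternative settings. Of the pseudo-response regulators, which repress LHY and CCA1, PRR9, PRR7, PRR5 and PRR3 rose, and TOC1 did not pass the test (0.12 ± 0.08, SE, edgeR adjusted p 0.28). PRR7 was at 19.5, 18.8 and 19.4 CPM in Col-0, 39.4, 46.7 and 45.4 CPM in 35S:CO and 39.3, 35.8 and 39.3 CPM in SUC2:CO. It was raised about equally in both lines, by 1.19 and 0.98, with a difference of 0.20 ± 0.09 (SE, edgeR adjusted p 0.15). PRR5 rose by 1.51 and PRR3 by 0.46. PRR9 had 3 counts in all in Col-0 against 47 in 35S:CO and 78 in SUC2:CO. The ratios were 15.8 (95% interval of 5.10 to 79.6) and 26.6 (8.79 to 132), exact intervals that cover counting error only.

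GI, which with FKF1 removes CDF proteins and so permits CO transcription, was at 31.6, 37.4 and 36.9 CPM in Col-0. It was at 56.8, 75.3 and 86.8 CPM in 35S:CO and 87.3, 77.5 and 93.1 CPM in SUC2:CO. The groups did not overlap, and the rise was 1.17 ± 0.14 (SE, edgeR adjusted p 0.00046). AT5G52660, a member of the same MYB list, rose by 0.54. GRP7 and GRP8, RNA-binding proteins of a clock output loop, fell by 0.48 and 0.59. GRP7 was at 1281 to 1567 CPM in Col-0, 785 to 974 CPM in 35S:CO and 1096 to 1159 CPM in SUC2:CO. LWD1, a WD-repeat clock protein, fell by 0.31, a call that held in 2 of 17 alternative settings. ASG4, RVE1, LNK1, LNK2 and LNK4 overlap other loci.

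**Figure D3:**
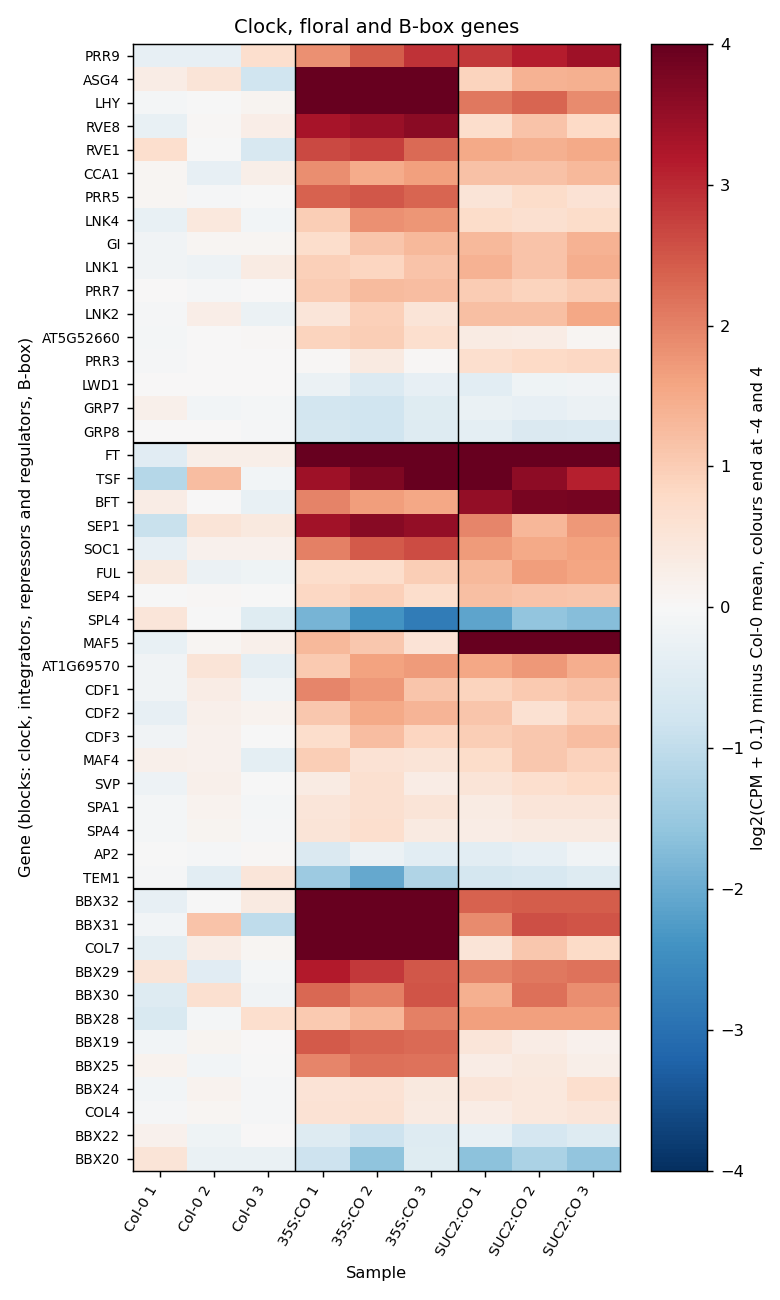
Common genes of the clock, florigen, repressor and B-box lists, a row per gene and a column per sample, coloured by log2(CPM + 0.1) minus the Col-0 mean. Rises such as LHY and FT are red in all 6 CO-line columns, and SPL4, TEM1 and BBX20 are blue.

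Of 27 tested B-box genes, the family of CO itself, 10 (37.0%) were common rises and 2 (7.4%) common falls, 3 changed with overlap and 12 did not pass the test. The median was 0.39, with a median of 0.52 in 35S:CO and 0.31 in SUC2:CO. BBX32, a small B-box protein that delays flowering when overexpressed, was at 0.416 to 0.730 CPM in Col-0, 24.5 to 37.0 CPM in 35S:CO and 3.25 to 3.41 CPM in SUC2:CO. It rose by 4.15 ± 0.21 (SE, edgeR adjusted p 4.1e-06). BBX31 and BBX30, single B-box microproteins that bind CO, rose by 4.12 and 2.19. BBX30 was at 0.303, 0.789 and 0.417 CPM in Col-0, 2.68, 2.19 and 3.13 CPM in 35S:CO and 1.44, 2.5 and 1.95 CPM in SUC2:CO, so the lines overlapped each other and not Col-0. BBX28 and BBX29, of the same small B-box group, rose by 1.52 and 2.75. COL7 rose by 3.27, almost all of it in 35S:CO, where it was at 20.7 to 32.5 CPM against 0.794 to 1.21 CPM in SUC2:CO and 0.378 to 0.664 CPM in Col-0.

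BBX19, which binds CO and lowers FT, rose by 1.39, and BBX25 and BBX24, repressors of seedling light responses, rose by 1.21 and 0.51. In SUC2:CO alone the changes of BBX19 (0.34) and BBX25 (0.31) did not pass the test. COL4 rose by 0.46. The falls were BBX20, by 1.32, and BBX22, by 0.56, which both act with HY5 to promote light responses. HY5, a bZIP factor that promotes light responses, fell by 1.13 ± 0.20 (SE, edgeR adjusted p 0.0029). It was at 7.14 to 10.3 CPM in Col-0, 2.64 to 4.81 CPM in 35S:CO and 3.88 to 5.22 CPM in SUC2:CO. HY5 was the only common gene among 15 tested of the light and shade list, a share of falls of 6.7% against 8.9% of all tested genes. There 4 others changed with overlap. BBX32, BBX25, BBX24 and BBX20 overlap other loci.

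Genes of salicylic acid signalling and defence had the second highest share of common rises among lists with at least 8 tested members. Of 18 tested, 8 (44.4%) rose and 9 did not pass the test, with a median of 1.08. The median was 1.32 in 35S:CO and 0.43 in SUC2:CO, and 4 of the 8 rises differed between the lines. No member was lower at an unadjusted p under 0.05 by edgeR, DESeq2 or limma-voom. PAD4, a lipase-like protein of immune signalling, was at 1.82, 1.41 and 2.57 CPM in Col-0. It was at 6.55, 7.89 and 9.58 CPM in 35S:CO and 4.84, 4.28 and 4.32 CPM in SUC2:CO, a rise of 1.62 ± 0.21 (SE, edgeR adjusted p 0.00080). WRKY54 and WRKY70, related transcription factors of the salicylic acid response, rose by 1.78 and 1.72. PR2, a glucanase and marker of that response, rose by 2.33, although its Col-0 samples spread from 0.795 to 4.48 CPM. In SUC2:CO alone the change of PR2 (1.54) did not pass the test. Jasmonate genes gave 1 common rise and 2 common falls of 20 tested. Leaving out a sample gave 1 to 3 rises, the most without Col-0 replicate 3, and 1 to 6 falls, with 1 without Col-0 replicate 1, 6 without Col-0 replicate 2 and 4 without 35S:CO replicate 3 or SUC2:CO replicate 1. Rises numbered 2 without Col-0 replicate 2 or SUC2:CO replicate 2. JAZ1, a repressor of the jasmonate response, fell by 1.03 and CYP94C1, a jasmonate-inactivating enzyme, by 1.91, while JAR1, which makes the active conjugate, rose by 0.40.

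Genes of carbon and nitrogen metabolism moved in smaller numbers. Of 28 starch genes 6 (21.4%) rose, and no member was lower at an unadjusted p under 0.05 by edgeR, DESeq2 or limma-voom. Without Col-0 replicate 1, or with the lines as 1 group, 3 starch genes rose. BAM1, a starch-degrading beta-amylase of the chloroplast, was at 42.0 to 49.1 CPM in Col-0, 94.1 to 113 CPM in 35S:CO and 67.0 to 75.7 CPM in SUC2:CO, a rise of 0.93. BAM3 and BAM5 rose by 0.59 and 2.44. GBSS1, the amylose synthase, rose by 2.97 in the mean, from 1.16 to 2.85 CPM in Col-0 to 76.5 to 89.5 CPM in 35S:CO and only 2.91 to 4.50 CPM in SUC2:CO. SWEET15, a sucrose exporter, was the only common gene among 10 tested of its family. It had 2 counts in all in Col-0 against 429 in 35S:CO, a ratio of 217 (95% interval of 59.7 to 1800), and 731 in SUC2:CO, a ratio of 375 (103 to 3100). In 35S:CO its replicates were at 2.76, 2.26 and 11 CPM, and in SUC2:CO at 10.5, 9.65 and 8.15 CPM. TPS1, which makes the sugar signal trehalose 6-phosphate, fell by 0.64, and TPS5, of the same family, rose by 0.44. They were the only common genes of 12 tested in their list (8.3% higher and 8.3% lower). In 35S:CO alone neither change passed the test (-0.28 and 0.28), and with the lines as 1 group neither gene was common. Both overlap other loci.

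Among 18 nitrate genes 4 (22.2%) rose and 1 fell, with 2 rises when the lines formed 1 group and 7 without Col-0 replicate 2. NIA2, a nitrate reductase, rose by 0.79 and LBD37, a repressor of nitrate-responsive genes, by 0.63. GLT1, a glutamate synthase, rose by 0.49. NRT2.1, a high-affinity nitrate transporter with a near-identical copy, fell by 3.34 ± 0.39 (SE, edgeR adjusted p 0.00048), from 4.31 to 11.5 CPM in Col-0 to 0.0364 to 0.351 CPM in 35S:CO and 2.41 to 2.87 CPM in SUC2:CO. NRT2.3 of the same family fell by 2.62. Of 41 nuclear photosynthesis genes, 6 (14.6%) rose and 1 was lower with overlap. The light-harvesting genes LHCB2.1, LHCB2.2 and LHCB2.3 rose by 2.09, 1.62 and 2.34, and LHCB1.4 by 1.47. LHCB2.1 was at 163 to 169 CPM in Col-0, 817 to 1275 CPM in 35S:CO and 343 to 581 CPM in SUC2:CO. LHCB2.1, LHCB2.2 and LHCB1.4 have near-identical copies, so reads may be split between them.

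Phloem genes gave 1 common rise and 1 common fall of 10 tested, with 3 rises without Col-0 replicate 2. AHA3, the proton pump of companion cells, rose by 0.61, and SUC2, the sucrose transporter whose promoter drives CO in one line, fell by 0.72 ± 0.12 (SE, edgeR adjusted p 0.0020). SUC2 was at 156, 207 and 157 CPM in Col-0, 131, 128 and 112 CPM in 35S:CO and 77.1, 93.6 and 98.0 CPM in SUC2:CO. The summed phloem level was 608 to 833 CPM in Col-0, 717 to 826 CPM in 35S:CO and 813 to 894 CPM in SUC2:CO. In whole seedlings, fewer cells of a type and less RNA per cell cannot be told apart. Of 14 abscisic acid genes 3 (21.4%) rose and 4 more were higher with overlap, against 1 rise without Col-0 replicate 1 and 5 without 35S:CO replicate 3. The 3 were NCED3, the key enzyme of its synthesis, by 1.47, and the phosphatases HAB1 and HAB2, which restrain the response, by 1.13 and 0.25, although NCED3 lost its call in 3 and HAB2 in 7 of 17 alternative settings. Among 21 auxin genes 3 (14.3%) rose, namely the conjugating enzyme GH3.5 by 2.1, the repressor IAA17 by 0.91 and the efflux carrier PIN3 by 0.43.

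Of 17 gibberellin genes GA3OX1, which makes active gibberellin, was the only common gene. It fell by 2.4 ± 0.43 (SE, edgeR adjusted p 0.0032), from 7.26 to 16.7 CPM in Col-0 to 2.38 to 3.82 CPM in 35S:CO and 0.191 to 1.85 CPM in SUC2:CO. MYB111, a regulator of flavonol synthesis, fell by 2.02 and was the only common gene of 21 phenylpropanoid genes. KIN1, a cold-induced gene with a near-identical copy, fell by 1.18. CYCD3;3, a D-type cyclin, fell by 0.74. With a sample left out, common falls numbered 0 to 4 for cell cycle and 0 to 1 for cold genes, both 0 without Col-0 replicate 1. PHO1, which exports phosphate to the xylem, rose by 0.82, and PAO, an enzyme of chlorophyll breakdown, by 0.45. PHO1 was the only common phosphate gene of 11 tested, against 0 without Col-0 replicate 1. That is 9.1%, where rises were 6.3% of all tested genes. Of 3 tested root markers, SCR rose by 0.50, PYK10 was lower with overlap (-1.24) and SHR did not pass the test. Of 5 tested guard cell markers, SLAC1 rose by 0.47, a call lost in 8 of 17 alternative settings, KAT1 was lower with overlap (-0.41) and the others did not pass the test. In the sulfate, glucosinolate, heat shock and cell wall loosening lists, 2 of 9, 3 of 20, 1 of 6 and 5 of 21 tested members changed, each with overlap. Over all tested genes 24.5% changed. Leaving out a sample gave up to 4 common falls of cell wall loosening genes and up to 2 common rises of glucosinolate genes, and DESeq2 called 4 glucosinolate genes higher where edgeR called 0 (4 at an unadjusted p under 0.05) and limma-voom 0. Of 9 tested iron genes 0 changed by edgeR, with 4 higher at an unadjusted p under 0.05, against 1 changed by DESeq2 and 0 by limma-voom.

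**Figure D4:**
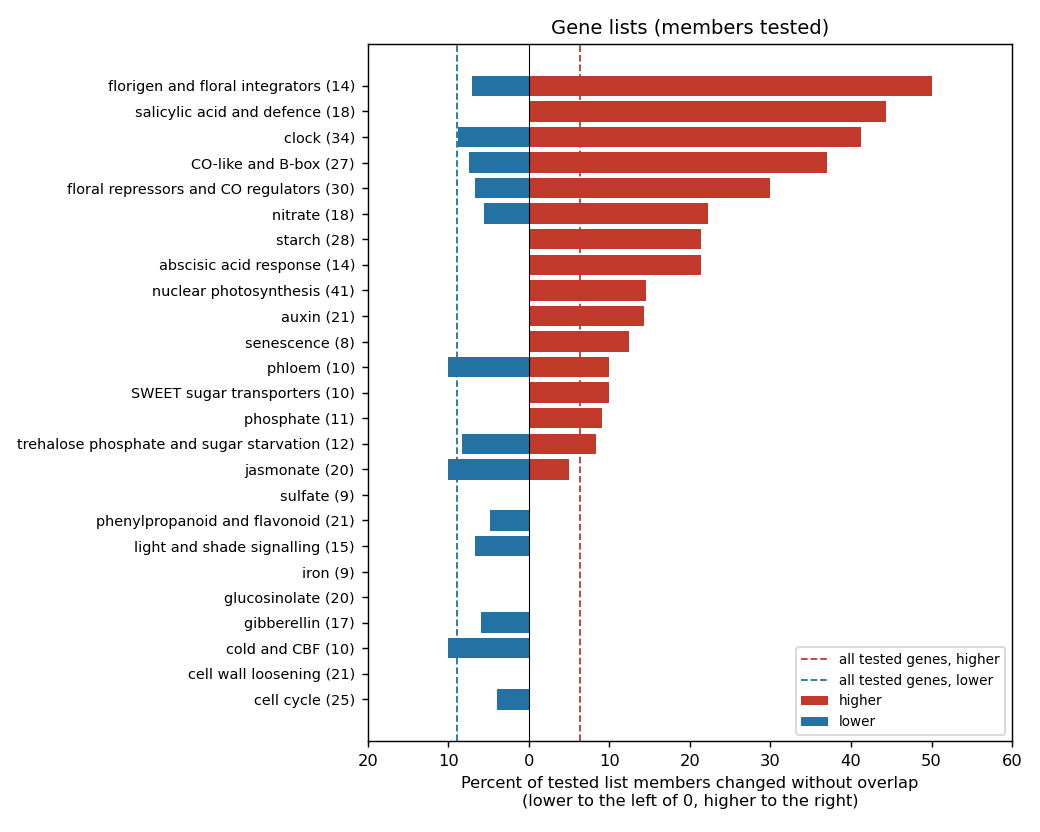
Percent of the tested members of each list with at least 8 tested genes that were common rises (to the right of 0) or common falls (to the left), with the number tested in brackets and dashed lines at the shares over all tested genes, 6.3% and 8.9%. Florigen genes (50.0%), salicylic acid and defence (44.4%), clock (41.2%) and B-box genes (37.0%) reach farthest to the right.

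Outside the lists, the rises were led by genes that were nearly silent in Col-0. LEA3, of the late embryogenesis abundant group, was at 0.908, 1.70 and 0.938 CPM in Col-0, 259, 300.0 and 280.0 CPM in 35S:CO and 18.9, 20.8 and 22.2 CPM in SUC2:CO. It rose by 6.02 ± 0.20 (SE, edgeR adjusted p 1.5e-07). ATCHX8, annotated as a cation/hydrogen exchanger, had 3 counts in all in Col-0 against 69 in 35S:CO and 512 in SUC2:CO, ratios of 23.3 (7.63 to 116) and 175 (59.5 to 851). AT2G27660, a C1 domain protein, had 5 counts against 87 and 532. AT5G44562 (5.98), CRK4 (4.54), AT3G29644 (4.40), AT3G24463 (4.32), AT4G34550 (4.21), PUB19 (3.79) and ENT6 (3.66) completed the 10 largest rises in mean log2 change outside the lists, at a mean log2 CPM of at least 1. CRK4 is a receptor-like kinase and AT4G34550 an F-box protein, and AT5G44562 and AT3G29644 are annotated as other RNA. Both of these, and AT3G24463, AT4G34550 and ENT6, overlap another locus, so their counts may hold its reads.

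Some of these rises were much alike in both lines. ENT6, a nucleoside transporter with a near-identical copy, was at 1.93, 1.99 and 1.56 CPM in Col-0. It was at 21.6, 25.5 and 20.3 CPM in 35S:CO and 21.1, 24.1 and 25.8 CPM in SUC2:CO, and the lines differed by -0.07 ± 0.12 (SE, edgeR adjusted p 0.72). AT3G29644 was at 0.243 to 0.568 CPM in Col-0, 8.60 to 9.88 CPM in 35S:CO and 7.18 to 9.64 CPM in SUC2:CO. Among rises of at least 1 log2 unit outside the lists, the 5 with the smallest difference were UNE15, SULTR3;1, BCA6, AT1G74440 and HSPRO2. SULTR3;1, a sulfate transporter, was at 3.37 to 3.78 CPM in Col-0, 10.2 to 10.9 CPM in 35S:CO and 9.81 to 11.5 CPM in SUC2:CO, a rise of 1.55 ± 0.11 (SE, edgeR adjusted p 2.4e-05). The rise of AT1G74440, 1.01, lost its call in 9 of 17 alternative settings.

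The falls were led by AT1G64795, an uncharacterized protein that overlaps AT1G64790. It was at 6.93, 7.26 and 8.76 CPM in Col-0, with 610 counts in all against 3 in 35S:CO and 4 in SUC2:CO. The ratios of Col-0 to the lines were 201 (68.5 to 978) and 149 (57.8 to 548). MEE3, a homeodomain-like protein, fell by 3.69 ± 0.23 (SE, edgeR adjusted p 1.1e-05), from 4.03 to 7.47 CPM in Col-0 to 0.552 to 0.742 CPM in 35S:CO and 0.265 to 0.323 CPM in SUC2:CO. AGP7 (-3.08), RL3 (-2.82), AT2G47880 (-2.79), EXPA16 (-2.37), AT2G16660 (-2.14), AZI1 (-2.13) and AAP2 (-2.08) followed in mean log2 change, beside NRT2.3 above. RL3 is a RAD-like MYB protein, AT2G47880 a glutaredoxin, EXPA16 an expansin that loosens walls, AZI1 a protein of systemic defence priming and AAP2 an amino acid permease. The most even falls were AT4G01580 (-1.43), AT1G16510 (-1.17), AT3G20370 (-2.03), JAZ1 (-1.03) and AZI1. AZI1 was at 7.76 to 14.1 CPM in Col-0, 1.42 to 3.02 CPM in 35S:CO and 1.76 to 2.87 CPM in SUC2:CO.

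Among genes that changed in the mean but had overlapping samples, the 5 with the largest mean change were AT5G24880, AT2G08650, AT5G42530, AT5G03285 and LTP2. All but AT5G42530 differed between the lines by the edgeR test. AT5G42530 was at 12.4, 240.0 and 294 CPM in Col-0, 206, 902 and 958 CPM in 35S:CO and 2312, 2172 and 1861 CPM in SUC2:CO, and its call was lost in 6 of 17 alternative settings. AT5G24880, a chromo domain protein, had no counts in Col-0, 741 in 35S:CO and 7 in SUC2:CO. Set against 3 counts per Col-0 library, its 35S:CO level was higher by at least 82.7-fold, while in SUC2:CO replicate 2 it was also at 0. AT5G03285, annotated as other RNA, had 7.08 to 13.0 CPM in Col-0, 0.0729 to 0.158 CPM in 35S:CO and 15.6 to 16.9 CPM in SUC2:CO, so the lines lay on opposite sides of Col-0. LTP2, a lipid transfer protein, was at 1.79 to 44.7 CPM in Col-0, 8.75 to 10.2 CPM in 35S:CO and 0.268 to 0.416 CPM in SUC2:CO. These genes are not counted as common.

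The promoter windows were searched on both strands for CCACA, both forms of the CO-responsive element and AAAATATCT. The reverse complement TGTGG of CCACA can overlap the TGTG forms. CCACA was in 28.6% of 19029 windows of tested genes, in 35.8% of those of common rises and in 26.7% of those of common falls. Among rises of at least 1 log2 unit the share was 40.8%, and among falls of at least 1 log2 unit it was 30.0%. Either CO-responsive form was in 6.8% of all windows, in 8.9% of those of common rises, in 12.3% of those of rises of at least 1 log2 unit and in 6.4% of those of common falls. The evening element was in 2.5%, 2.6% and 1.9% of the windows of all tested genes, common rises and common falls. These shares are descriptions of letters in a window, and binding was not measured. Common genes were spread over all 5 nuclear chromosomes, with rises in 6.1% to 6.67% and falls in 8.21% to 10.2% of the tested genes of a chromosome.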

How the data were processed

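Libraries were strand-specific, made at BGI Hong Kong from total RNA of an RNeasy Plant Mini Kit, per the labels' protocols. The table deposited by the authors holds unnormalized counts of reads per gene. FastQC, STAR, featureCounts and limma with build TAIR10 are named in the submitters' processing notes. Their versions and the strand setting of counting are not given in the sources used here, so reads from a gene and an overlapping or antisense locus may be mixed. No sample was left out. Names, overlaps and promoter windows came from RefSeq's TAIR10.1 annotation, which held 32548 of the 32833 genes. Of the 121 named genes, 32 overlap another locus. Those not flagged above are GLT1, LHCB2.3, BAM3, UNE15, AT1G74440, AT2G47880, AT2G08650, PAO and SLAC1. The name near-identical copy covers transcripts that blastn matched at high identity, over all or only part of the length.

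Counts were analysed with edgeR 4.0.16 in R 4.3.3. The steps were filterByExpr by genotype (19149 genes kept), TMM scaling and a quasi-likelihood fit with a term per genotype to all 9 samples. The contrast was the mean of 35S:CO and SUC2:CO minus Col-0, tested two-sided. A common gene had an adjusted p under 0.05 and no overlap of the 6 CO-line with the 3 Col-0 values. Fitted changes of genes near 0 counts depend on the prior count, so ratios of summed counts with exact intervals are given for them. The members, lists, naming rule and tests were chosen with earlier results of these data known. The rule named CO, FT and all common genes of the clock, florigen, repressor and B-box lists. It added up to 4 common genes of each other list, the 10 largest rises and falls, the 5 most even rises and falls and the 5 largest changes with overlap, the last groups at a mean log2 CPM of at least 1. In simulated counts of 18936 genes with 200 changed in both lines, edgeR recovered 96% with 6.34% of calls false. On the same counts limma-voom (limma 3.58.1) recovered 94.5% with 5.03% false and DESeq2 1.42.0 92.5% with 11.5% false. In the measured counts 24.5% of tested genes changed, and 35S:CO and SUC2:CO differed in 18.8%. Recovery at those shares was not tested. Alternatives were other filters, scalings and tools, the lines as 1 group, the replicate number as a block, each sample left out, an adjusted p under 0.01 and a log2 change of at least 1.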

Additional observations from a re-analysis of the deposited data

Results flagged for a closer look

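Of the 121 named genes, 56 differed between the lines by the edgeR test of 35S:CO against SUC2:CO, and in 39 the difference was at least 1 log2 unit. All values here are log2 differences of 35S:CO minus SUC2:CO. In 28 of the 39 the level was higher in 35S:CO and in 11 lower.

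Among CO, B-box and clock genes, the difference was 3.58 for CO, 3.18 for BBX32, 3.13 for BBX31, 4.77 for COL7, 2.09 for BBX19 and 1.81 for BBX25. For the MYB clock genes it was 4.01 for ASG4, 1.97 for LHY, 2.63 for RVE8 and 1.09 for RVE1, and for PRR5 it was 1.78. In the floral lists FT (-1.57), BFT (-1.99) and MAF5 (-3.39) were higher in SUC2:CO, and SEP1 (1.86) was higher in 35S:CO.

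Among rises outside those lists, the differences were 3.76 for LEA3, 4.18 for AT3G24463, 4.09 for AT4G34550, 4.16 for PUB19, -1.58 for AT5G44562, -2.90 for ATCHX8 and -2.63 for AT2G27660. Starch, photosynthesis and defence genes that differed were GBSS1 (4.43), LHCB2.3 (2.00), LHCB2.1 (1.18), LHCB2.2 (1.12), PR2 (1.58) and WRKY54 (-1.15). Among falls they were AAP2 (1.88), AT2G47880 (2.1), RL3 (2.11), MEE3 (1.18), EXPA16 (-1.26), NRT2.1 (-3.81) and KIN1 (-1.41). The genes whose samples overlapped Col-0 were AT5G24880 (6.64), AT2G08650 (4.38), AT5G03285 (-6.95) and LTP2 (4.86). Promoter, CO level and the co-10 background differ together between the lines and cannot be told apart.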

How the results depend on the processing

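Changed genes numbered 4695 and common genes 2913. They were 2225 and 1846 at an adjusted p under 0.01, 1007 and 700 with a log2 change of at least 1, and 1883 and 1799 with the CO lines as 1 group. Other filters, scalings, DESeq2 and limma-voom kept both within 1.5 times. Of the 2913 common genes, 2004 stayed common with library totals and 2539 without a low-count filter. Under the other filter, scaling and tools 2733 to 2881 stayed common. With a sample left out, 1973 (without Col-0 replicate 1) to 2747 (without 35S:CO replicate 3) did. Leaving out each sample in turn gave 2545 to 4915 changed genes and 3552 to 5605 with no overlap (3440 with all samples). All of these no-overlap counts exceeded 3440, and the rule is looser with a sample fewer. Common genes then numbered 2099 to 3800, and those that differ between the lines 382 to 1338 (849 with all samples). The share of higher genes among those changed ran from 40.7% with library totals to 50.4% with DESeq2, against 44.8%. With the replicate number as a block, 5393 genes changed, 2923 were common and 1 named gene, LWD1, lost its call (edgeR adjusted p 0.053). Same-numbered samples of 35S:CO and Col-0 correlated at 0.435, 0.302 and 0.248, those of SUC2:CO and Col-0 at 0.119, 0.0702 and -0.0803, and those of the lines at -0.044, 0.0464 and -0.113, while differently numbered samples of 35S:CO and Col-0 correlated at -0.29 to -0.0549. By correlation the numbers thus matched 35S:CO to Col-0 but not SUC2:CO to either. With 3 samples per genotype such a match can arise without pairing. The comparison of all 3 genotypes was kept without the block. Deviations were taken from genotype means, which ties these values to each other. Col-0 replicate 1 alone correlated best with its own number in both other genotypes.

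For the 121 named genes, 1947 of 2056 alternative values kept their direction and call, 109 lost the call and none reversed. The call was lost in at least 1 setting for 44 genes, for 37 of them with the lines as 1 group and for 17 without Col-0 replicate 1. Counts per list under each alternative were added after seeing the data. Over the samples left out in turn, rises ran from 13 to 16 for clock, 7 to 8 for florigen and 8 to 12 for repressor genes. They ran from 10 to 12 for B-box and 7 to 10 for defence genes. The looser no-overlap rule with a sample left out can raise these counts and those given above for other lists. With the lines as 1 group, common rises were 8 for clock, 7 for florigen, 8 for repressor, 7 for B-box and 6 for defence genes. With the lines kept apart they were 14, 7, 9, 10 and 8. Levels under 3 counts, about 0.104 to 0.125 CPM, are at the limit of detection.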
